A study of Mus musculus with 8 samples.

Results

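The Alad locus lies on mouse chromosome 4, and the regions described here are those of accessible chromatin listed between chr4:62300000-62700000 (mm10), together with 6 genes of that window: Alad, Hdhd3, Pole3, Bspry, Prpf4 and Cdc26. The window was chosen because listed regions are crowded there, so their number and spacing are given as a description, with no test. It held 15 of the 14401 regions listed at 0.1 µM, 17 of 11130 at 0.5 µM and 18 of 15894 at 1 µM, and the 6 genes are 6 of 21631 protein-coding genes. Members were thus selected on the density of listed regions. The assay was ATAC-seq, which uses Tn5, a transposase that inserts adapters into DNA left exposed by nucleosomes. The cells were Hepa-1c1c7, a hepatoma line from the mouse, kept with potassium chromate, which supplies hexavalent chromium, for 72 h at 0 (control), 0.1, 0.5 or 1 µM, with 2 libraries at each of these doses. One list of regions exists per treated dose and names the control beside it. Values therefore carry no error between replicates. All lists name the same control, without stating which of its libraries were used. Whether being listed means a gain of openness over the control is not stated. In the names of the lists, 1 µM carries the tag N503 and the other doses and the control N502, a difference that cannot be told apart from the dose.

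Alad encodes delta-aminolevulinate dehydratase, a zinc-dependent cytosolic enzyme that joins pairs of aminolevulinate molecules to porphobilinogen at an early step of heme synthesis. Liver cells make heme for their cytochromes, and the enzyme is known for its sensitivity to lead. The segment that carries Alad is also known to differ in copy number between inbred mouse strains. No copy number was measured here.

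In each list the regions around Alad formed a run, defined as regions with at most 10 kb of unlisted bases between neighbours. At 0.1 µM the run held 12 regions over 29.5 kb (chr4:62495949-62525409), at 0.5 µM 14 regions over 28.8 kb (chr4:62496762-62525564) and at 1 µM 15 regions over 29.4 kb (chr4:62496043-62525466). Every run thus began near the far end of Bspry, crossed Hdhd3 and Alad and ended just inside 4933430I17Rik, the gene after Pole3. Beyond it the lists were empty for 86.8, 87.9 and 87.1 kb on the Bspry side and for 159, 174 and 174 kb on the Pole3 side, in order of dose. The run was 1st by number of regions among the 10939 runs at 0.1 µM, 3rd among 8643 at 0.5 µM and 4th among 11749 at 1 µM, most of which were single regions (78.4%, 81.1% and 77.7%). Runs with at least as many regions as the one at Alad made up 0.00914%, 0.0347% and 0.034% of all runs. That ranking restates how the locus was chosen. Among regions in the upper 50% of each list by score, the run held 5, 6 and 6.

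**Figure D1:**
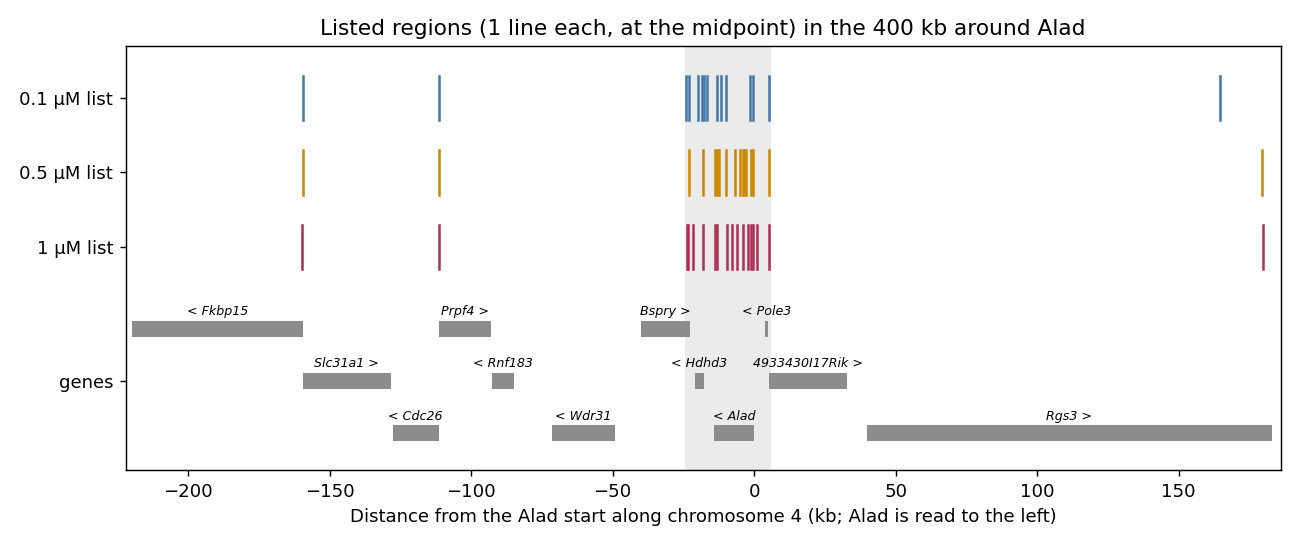
Position of each listed region (1 vertical line at its midpoint) in the 400 kb around Alad, in kb from the Alad start along chromosome 4, for the lists of 0.1, 0.5 and 1 µM, with protein-coding genes below and arrowheads for their direction. The grey band is the dense stretch, which holds 12, 14 and 15 regions, while the rest of the window holds 3 at each dose.

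**Figure D2:**
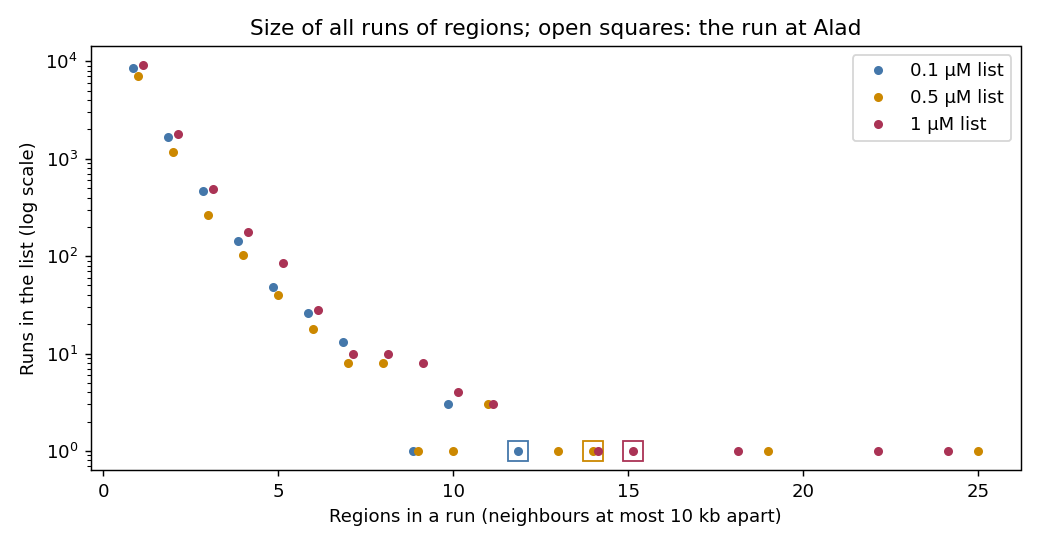
Number of runs in each list (vertical axis, log scale) by the number of regions they hold (neighbours at most 10 kb apart), for the lists of 0.1, 0.5 and 1 µM. Open squares mark the run at Alad, with 12, 14 and 15 regions, toward the right end of each series of points.

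Of the 6 genes, all but Bspry have starts in listed DNA or within 1 kb of it. The 250 bases before 4 of these starts are printed here. Those of Alad, Hdhd3 and Cdc26 were listed whole at every dose, and those of Pole3 in part or not at all. Sequences are from RefSeq (GRCm38.p6, the assembly of mm10), 5′ to 3′ on the strand of the gene. Capitals mark matches, on either strand, to a GC box (GGGCGG), the CCAAT letters, a TATA box (TATAAA) or an E-box (CACGTG). The Alad bases lie at chr4:62520064-62520313 (minus strand), those of Hdhd3 at chr4:62502201-62502450 (minus), those of Pole3 at chr4:62525015-62525264 (minus) and those of Cdc26 at chr4:62408626-62408875 (minus), which on the other strand also hold most of the promoter of Prpf4.
Alad: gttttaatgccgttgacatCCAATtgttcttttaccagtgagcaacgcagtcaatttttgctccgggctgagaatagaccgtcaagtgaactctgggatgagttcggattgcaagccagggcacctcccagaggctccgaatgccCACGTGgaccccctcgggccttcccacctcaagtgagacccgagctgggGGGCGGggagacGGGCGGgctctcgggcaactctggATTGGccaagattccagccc
Hdhd3: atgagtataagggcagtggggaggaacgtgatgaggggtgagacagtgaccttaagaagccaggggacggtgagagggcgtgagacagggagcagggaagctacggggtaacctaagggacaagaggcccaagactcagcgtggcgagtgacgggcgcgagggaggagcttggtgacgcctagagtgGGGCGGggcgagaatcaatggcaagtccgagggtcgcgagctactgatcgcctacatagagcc
Pole3: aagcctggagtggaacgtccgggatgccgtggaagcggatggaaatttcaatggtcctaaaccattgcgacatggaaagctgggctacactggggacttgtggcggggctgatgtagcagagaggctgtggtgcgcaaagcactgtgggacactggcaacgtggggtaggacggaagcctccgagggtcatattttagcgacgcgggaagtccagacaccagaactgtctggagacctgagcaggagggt
Cdc26: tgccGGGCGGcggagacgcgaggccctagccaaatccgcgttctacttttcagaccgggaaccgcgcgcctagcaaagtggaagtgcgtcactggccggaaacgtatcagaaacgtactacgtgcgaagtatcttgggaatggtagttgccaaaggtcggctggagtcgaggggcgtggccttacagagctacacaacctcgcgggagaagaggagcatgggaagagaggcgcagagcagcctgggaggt

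The printed Alad promoter held 2 GC boxes, 2 CCAAT matches, 1 on each strand, and 1 E-box, none of which overlap. Those of Hdhd3 and Cdc26 held 1 GC box each, and in that of Pole3 none of the letters searched were found. Among 32851 promoters of 250 bases, 32.7% held a GC box, 33.8% CCAAT, 12.4% a TATA box and 6.02% an E-box. CTCF sites, which the title of the series names, were searched by a consensus of the CTCF motif on both strands, as were AP-1 (TGANTCA), antioxidant response (TGACNNNGC) and GATA factor (AGATAA) motifs. They occur in 0.508%, 6.75%, 10.2% and 9.99% of promoters and had no match in these windows or in those of Prpf4 and Bspry. A second Alad start lies 154 bp into the gene, and its own 250 bases, which overlap those printed, held 6 GC boxes, of which the middle pair overlap each other and the last pair do too. By GC content the Alad promoter stood at 58.4% for the upstream start and 70.4% for the second, against a median of 52.4% over all promoters. The promoters of the other members also lay above that median. Hdhd3 had 60.8%, Cdc26 60%, Bspry 59.6%, Pole3 57.6% and Prpf4 56.8%.

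The Alad start lay inside a wide listed region at every dose. The region spanned 1032 bp at 0.1 µM (chr4:62519330-62520361), 1237 bp at 0.5 µM (chr4:62519169-62520405) and 1089 bp at 1 µM (chr4:62519287-62520375), and covered all 250 printed bases and both starts each time. By width it stood at percentile 96.6, 99.1 and 97.0 of its list. Its deposited scores were 7, 12 and 24, at percentile 22.8, 59.5 and 76.9. The score is a whole number per region whose scale the authors do not state, and here it serves to rank regions within 1 list. Width and score thus disagreed most at 0.1 µM, where the region was among the widest and scored below most of the list. A further region lay just inside the gene, with scores of 14, 13 and 11, separated from the one at the start by 471, 76 and 56 unlisted bases.

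Within Alad, 2 more places were listed at every dose. The higher scoring lay about 10 kb into the gene, at chr4:62509881-62510434 (554 bp) at 0.1 µM, chr4:62509927-62510612 (686 bp) at 0.5 µM and chr4:62509881-62510880 (1000 bp) at 1 µM. Its scores of 28, 21 and 58 put it at percentile 85.2, 83.4 and 94.4, and it was the highest of the whole run at 0.1 and 1 µM. At 0.5 µM a region at the Hdhd3 start scored higher. The other lay near the far end of Alad, 13.1, 13.0 and 13.1 kb from the start (chr4:62506694-62507131 at 0.1 µM), with scores of 15, 16 and 14. Weaker regions surrounded it in single lists or in 2 of them, at chr4:62506191-62506439 (score 5) and chr4:62507564-62507822 (score 6) at 0.5 µM, chr4:62506010-62506208 (score 6) at 1 µM and chr4:62508372-62508610 (score 5) at 0.1 µM. The gene table used gives gene ends and no exons, so exonic and intronic places were not told apart.

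The lists differed between these places. From 1.54 to 9.18 kb into Alad, a stretch of 7.65 kb between the start and the 10-kb place, 0 regions were listed at 0.1 µM, 5 at 0.5 µM and 4 at 1 µM. This stretch was picked after the values had been seen. At 0.1 µM it made the largest gap of the run, 8111 bp. The 5 regions at 0.5 µM were 199 to 637 bp wide with scores of 6 to 9, and the 4 at 1 µM were 253 to 402 bp wide with scores of 5 to 10, each below the median score of its list (10 and 13). By score they stood at percentile 13.8 to 42.9 of the 0.5 µM list and 6.05 to 39.1 of the 1 µM list. A place missing from the 0.1 µM list is not shown to be closed.

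**Figure D3:**
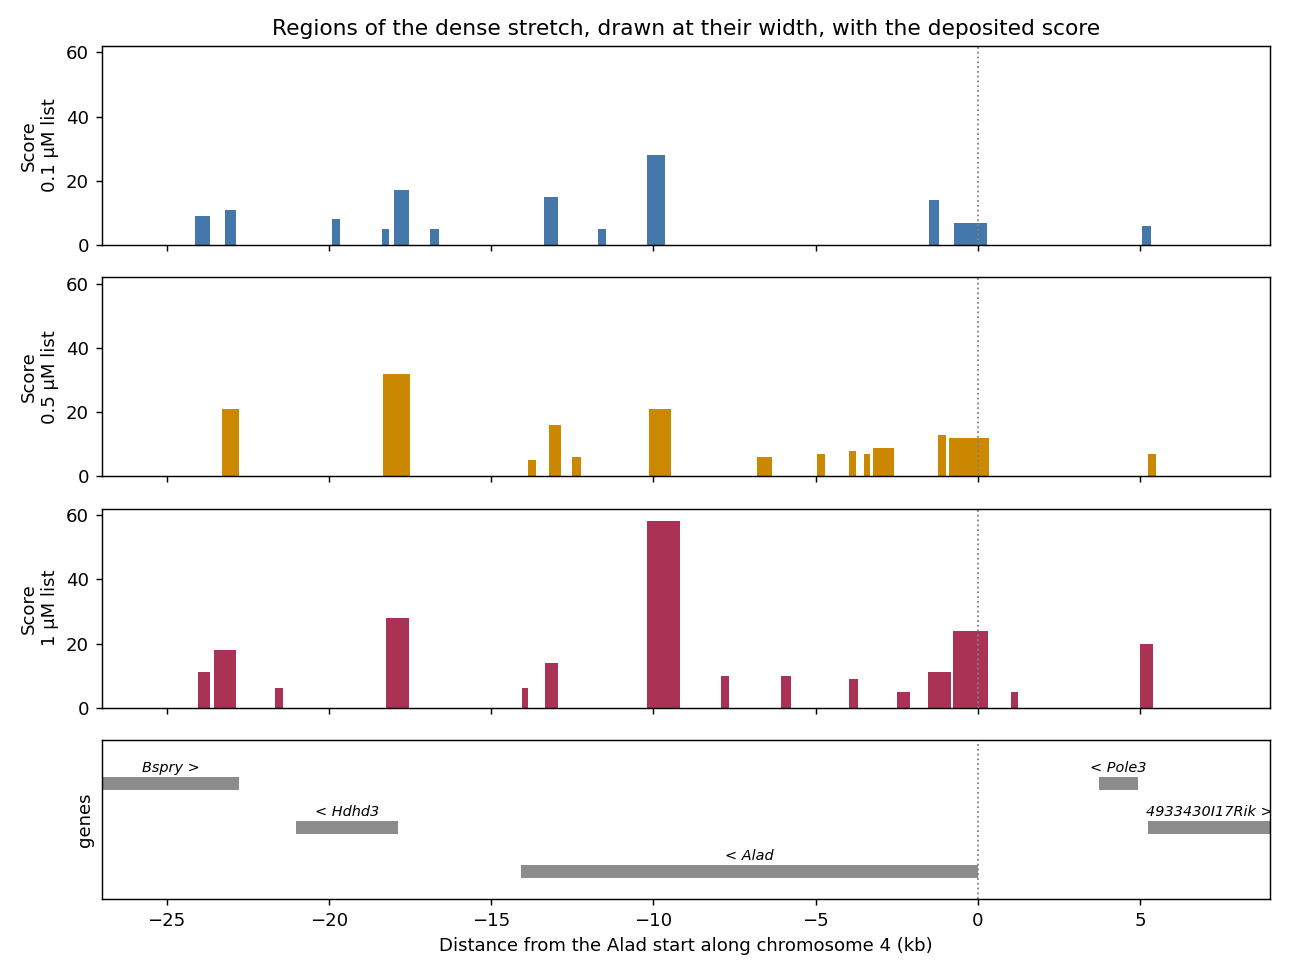
Deposited score (vertical axis, no unit) of each region of the dense stretch, drawn at its true width, against the distance from the Alad start in kb, in 1 panel per dose, with genes at the bottom. The tallest bar, 58, is the place about 10 kb into Alad at 1 µM, and at 0.1 µM no bar stands from 1.54 to 9.18 kb into Alad.

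In all, 5 regions had their midpoint inside Alad at 0.1 µM, 11 at 0.5 µM and 9 at 1 µM. They covered 2278, 4478 and 4326 of its 14080 bp, or 16.2%, 31.8% and 30.7%. Regions of the run on the Bspry side of the far end of Alad numbered 6, 2 and 4. Among the 9536 protein-coding genes no longer than Alad, 2 held at least 5 regions at 0.1 µM, Alad and Foxa2, a liver transcription factor gene of 4.09 kb. At 0.5 and 1 µM Alad was the 1 gene of that length or less with at least 11 or 9 regions. Longer genes with at least as many numbered 249, 20 and 67. The place of Alad in these counts restates how the locus was chosen, and nothing is read from it.

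Spacing inside the run was uneven. The median gap between neighbours was 1270, 1359 and 1232 bp in order of dose, with a lowest gap of 157, 76 and 56 bp and a highest of 8111, 4898 and 3770 bp. Over each whole list the median gap was 44.2, 51.4 and 39.1 kb, given for scale, since the definition of a run keeps its gaps at 10 kb or less. Listed bases made up 16.3%, 22.5% and 24.6% of the run, so most of it was unlisted at each dose. The regions were not strong for their lists: the median score in the run was 8.5, 8.5 and 11, against 11, 10 and 13 over the list, and 7 of 12, 8 of 14 and 9 of 15 lay below the list's median. The median width was 323, 312.5 and 402 bp, against 339, 324 and 353 bp.

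**Figure D4:**
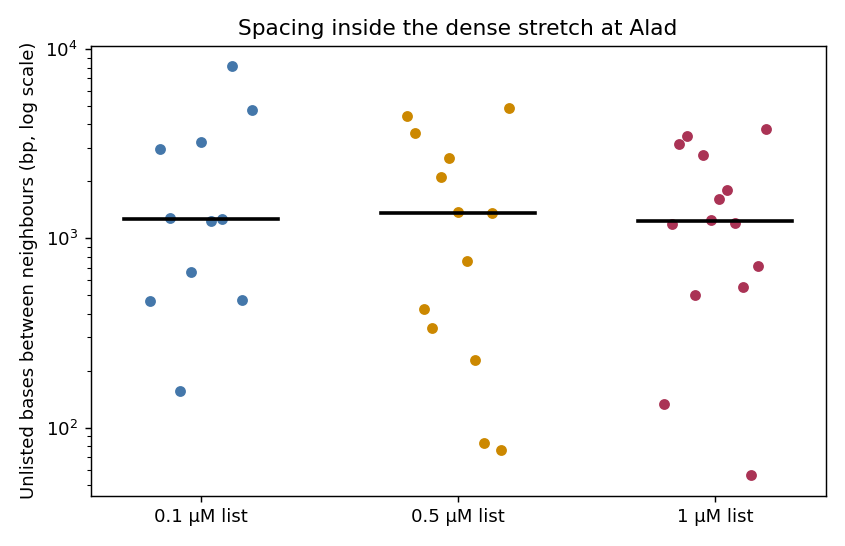
Unlisted bases between neighbouring regions of the run at Alad (log axis, bp), 1 point per gap in chromosome order from left to right within each dose. Bars are the medians of 1270, 1359 and 1232 bp, and the highest point, 8111 bp at 0.1 µM, is the empty part of Alad.

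Every one of the 6 genes had a region within 1 kb of a gene end in every list, where the share over all protein-coding genes was 19.5%, 18.7% and 23%. The genes are neighbours, in part share their regions and were named for having them, so nothing is read from this count. It was again 6 in every list with an end window of 2.5 kb, which held 21.9%, 21.1% and 25.7% of all genes, and with the gene and 10 kb either side, which held 31.7%, 30.2% and 36.8%. Of 300-base promoter windows, 13%, 12.1% and 15.3% touched a listed region.

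Hdhd3, which encodes a protein of the haloacid dehalogenase-like hydrolase family, starts 3.78 kb from the far end of Alad. Its printed promoter was covered whole at each dose. At 0.1 µM the start was covered by chr4:62502081-62502520, with a score of 17, and a second region with a score of 5 followed 157 bp further into the gene. At 0.5 µM the 2 places were joined in 1 region of 851 bp (chr4:62501720-62502570), whose score of 32 was the highest of the run. At 1 µM the region measured 718 bp (chr4:62501815-62502532) and scored 28. A region at chr4:62500171-62500415 inside the gene (score 8) was listed at 0.1 µM alone, as was one between Hdhd3 and Alad at chr4:62503185-62503444 (score 5). Between Hdhd3 and Bspry, chr4:62498411-62498651 (score 6) was listed at 1 µM alone. Listed bases were 18.9%, 15.3% and 12.3% of the 3.15-kb gene.

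Bspry, whose protein carries a B-box and a SPRY domain, reaches into the run with its far end while its start lies outside, 15.9 kb or more before the first region. None of the 250 bases before that start were listed at any dose. They hold 1 GC box and 1 TATAAA match, the latter 129 to 124 bases before the start. Whether such matches go with being listed was not tested. At its far end, chr4:62496871-62497203 scored 11 at 0.1 µM, chr4:62496762-62497296 scored 21 at 0.5 µM and chr4:62496534-62497212 scored 18 at 1 µM. A further region, 469 and 133 bp inward, scored 9 at 0.1 µM and 11 at 1 µM and was absent from the 0.5 µM list. Its absence places the left edge of the run 813 bp further in at 0.5 µM than at 0.1 µM.

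Pole3 encodes a histone-fold subunit of DNA polymerase epsilon that also belongs to the CHRAC remodelling complex. It is read away from 4933430I17Rik, whose start lies 290 bp from its own, and the last region of the run included the 1st base of 4933430I17Rik at each dose. It was chr4:62525139-62525409 at 0.1 µM (score 6), chr4:62525304-62525564 at 0.5 µM (score 7) and chr4:62525065-62525466 at 1 µM (score 20). Of the 250 bases printed for Pole3, 126 were listed at 0.1 µM, 0 at 0.5 µM and 200 at 1 µM. The start of Pole3 itself was outside the region each time, and no base of the 1.22-kb gene was listed. At 0.5 µM the region began on the 1st base of 4933430I17Rik, so what lies within 1 kb of Pole3 there is the start of its neighbour. Between Alad and Pole3, a region of 201 bp with a score of 5 (chr4:62521094-62521294) appeared at 1 µM.

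Prpf4, a protein of the U4/U6 small nuclear ribonucleoprotein of the spliceosome, and Cdc26, a small subunit of the anaphase-promoting complex, lie outside the run, with starts 137 bp apart that are read in opposite directions. A single region covered both starts at each dose. It was chr4:62408484-62409167 at 0.1 µM (684 bp, score 28), chr4:62408607-62408902 at 0.5 µM (296 bp, score 12) and chr4:62408540-62408941 at 1 µM (402 bp, score 16). The 250 bases before the Cdc26 start were covered whole each time, and those before the Prpf4 start to 250, 176 and 243 bases. No other region lay in either gene, so an isolated promoter region stands here beside the crowded Alad.

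**Figure D5:**
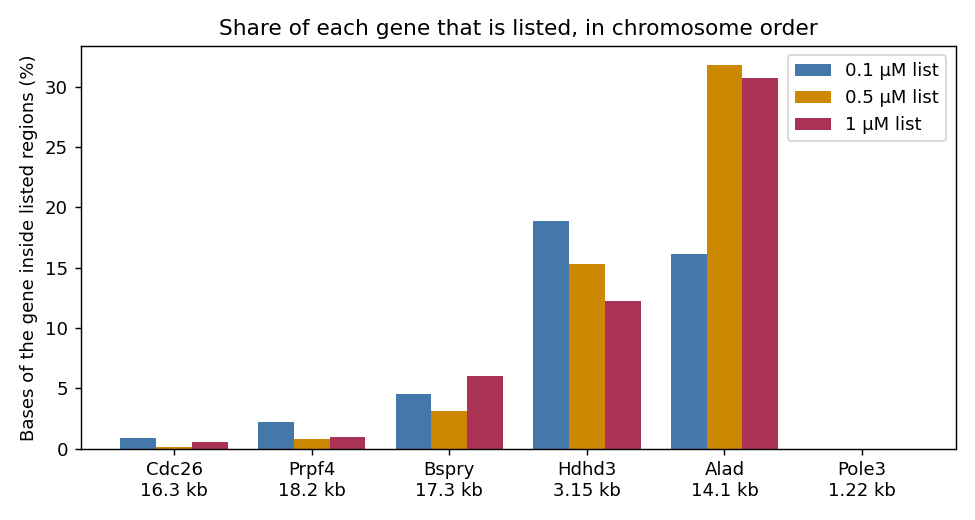
Share of the bases of each of the 6 genes that lie in listed regions (%, axis from 0), in chromosome order, with 1 bar per dose and the gene length under each name. Alad has 16.2%, 31.8% and 30.7%, Hdhd3 18.9%, 15.3% and 12.3%, Pole3 none, and the other genes at most 5.998%.

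Among the other protein-coding genes of the window, the copper transporter gene Slc31a1 and Fkbp15, which start at nearly the same place in opposite directions, shared 1 region with scores of 24, 17 and 5. Rnf183 and Wdr31 had no listed base and no region within 1 kb of an end at any dose. Rgs3, a regulator of G-protein signalling, held 1 region per dose, at chr4:62684472-62684718 at 0.1 µM (score 6), chr4:62699457-62699727 at 0.5 µM (score 5) and chr4:62699487-62699934 at 1 µM (score 9). Just outside the window, the nearest regions were 13.6, 91.6 and 13.5 kb from its left edge and 616, 33.1 and 5.16 kb from its right edge.

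The other genes of heme synthesis described here had at most 2 regions at their ends. Alad, chosen for its crowded regions, had 1 at each end at 0.1 µM and 2 at each end at 0.5 and 1 µM. Of 8 genes of the pathway, a region lay within 1 kb of an end in 5, 5 and 4, beside 19.5%, 18.7% and 23% of all genes, and Alad is 1 of them. Alas1 and Alas2, which encode the first and rate-limiting enzyme, had none at any dose. Cpox, coproporphyrinogen oxidase, had a region at its start with scores of 35, 14 and 22. Ppox, protoporphyrinogen oxidase, scored 36 and 26 at 0.1 and 0.5 µM and had a pair of regions of 7 and 60 at 1 µM. Fech, ferrochelatase, which inserts the iron, had low scores of 7, 7 and 9. Uros had a region at 0.1 µM, which overlaps an end of Bccip (score 11), and Urod at 0.5 µM (score 5).

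Of 15 genes of heme use and transport, 8, 7 and 8 had a region at an end. Bach1, a heme-sensing repressor, had a pair of regions at its start in each list, with scores of 15 and 23, 15 and 10, and 14 and 44. Flvcr1, described as a heme exporter, scored 36, 39 and 94, Blvra 9, 7 and 16, Blvrb 7, 19 and 10, the last a pair of biliverdin reductase genes, and the transporter gene Abcb6 5, 6 and 8. The lists of partners of the neighbours also count the neighbours Pole3, Prpf4 and Cdc26, which were named for having regions. Of 7 genes of DNA polymerase epsilon and the CHRAC complex, 4, 4 and 5 had a region. Among them were Pole3, Pole4 (19, 29 and 9), Chrac1 (17, 25 and 20) and Smarca5 (16, 12 and 33) at each dose and Pole (10) at 1 µM. Of 12 genes of the U4/U6 particle and its partners there were 3, 2 and 3, with Prpf4, Ppih (10 and 7 at 0.1 and 1 µM), Prpf6 (9 at 0.1 µM) and Snrnp200 (4 and 9 at 0.5 and 1 µM). That is 25%, 16.7% and 25% with Prpf4 counted, near the shares of all genes, and says nothing about the particle. Of 16 genes of the anaphase-promoting complex and its activators there were 6, 7 and 7. Anapc10 (12, 17 and 19), Cdc20, Cdc26, Cdc27 and Fzr1 had a region at each dose. Anapc4 had a region at 0.1 and 1 µM (17 and 20), and Anapc1, Anapc5 and Anapc13 in 1 list each. These lists were read against 19.5%, 18.7% and 23% of all genes as counts, with no test.

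Of 9 hepatocyte markers, Foxa2 and Apoa2 had a region at a gene end in every list and Foxa1 at 1 µM, while Alb, Afp, Apoa1, Ttr, Hnf4a and Cebpa had none. That is 2, 2 and 3 of the 9 in order of dose, or 22.2%, 22.2% and 33.3%, beside 19.5%, 18.7% and 23% of all genes, and shares this near those of all genes say nothing about the markers. Of 4 immune and 4 erythroid markers none had a region, of 3 neuronal markers Snap25 at 0.1 µM, and of 4 fibroblast and endothelial markers Dcn at 0.5 and 1 µM, counts too small to set against the same shares. The depth of the libraries is unknown, since the files hold no read counts.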

How the data were processed

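ATAC-seq lists of 3 treated doses were analysed, for 8 libraries in all. Per the labels, Bowtie2, Picard, MACS2 and the build mm10 belong to the submitters' processing, with no role or version for each. How the libraries of a dose and the control were combined and the shift for Tn5 are not stated in what was used here. The names of the lists carry a q tag, which points to a threshold, and the tags filtered, BL and unique. The names do not explain these tags. The deposited score of a region is a whole number, 4 or more, with no stated scale. Positions were made 1-based and set beside RefSeq genes and promoters of GRCm38.p6 with Python 3.11.15 and pandas 2.3.3. A region belonged to the window by its midpoint. A gene was counted with 1 base of a region within 1 kb of either end. Alternatives were the upper 50% by score or width, joins at 500 bp, runs at 5 or 20 kb, ends of 2.5 kb and gene bodies with 10 kb. The code was tested on simulated lists. The genes, lists and rules were chosen with earlier results of these data known. Named genes are those of the window, 8 heme synthesis genes, and up to 5 with a region per other list in alphabetical order, besides cell type markers and those picked after their values were seen. No fit or test was made, as a dose has 1 list. Region sequences were not used here, and 1 gene of each of 2 lists is not reported here.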

Additional observations from a re-analysis of the deposited data

How the results depend on the processing

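No paired analysis was possible because each dose has 1 list, which also kept single libraries from being left out. With neighbours up to 20 kb apart the runs did not change at any dose. With 5 kb the run at 0.1 µM shortened to 9 regions over 14.5 kb (median gap 1255 bp), since the empty part of Alad split it, and those at 0.5 and 1 µM did not change. Among regions in the upper 50% by score, the window held 7, 8 and 7 regions in order of dose and the run 5, 6 and 6, over 22.0, 23.6 and 28.9 kb with median gaps of 4525, 4292 and 4602 bp. Among the wider 50%, the window held 7 and 8 regions at 0.1 and 0.5 µM and the run 5, 7 and 9, over 24.4 and 23.6 kb at the first 2 doses, with median gaps of 4926, 2906.5 and 3461.5 bp. Joining regions within 500 bp gave median gaps of 2123, 2376 and 1431 bp and left 9 regions in the run at 0.5 µM. Places of the window listed at every dose numbered 8, and 5 by score, by width or with a reciprocal overlap of 50%. The lists name the same control, so this is not read as a result. In the upper 50% by score, genes with a region at an end fell to 3 for heme synthesis at 0.5 µM, to 3, 4 and 5 for heme use and transport, to 3 for DNA polymerase epsilon at 1 µM, to 1 at each dose for the U4/U6 particle and to 3 for the anaphase-promoting complex at 0.5 µM. With gene bodies and 10 kb the U4/U6 count was 5 at each dose. All other counts stayed within 1.5 times.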

Other observations

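The runs with at least as many regions as the one at Alad in some list, a choice made after the runs had been seen, lay at 3 other places. The one on chromosome 1 (chr1:83111755-83170550), across Ccl20, a chemokine gene, and Daw1, held 9 regions at 0.1 µM, 25 at 0.5 µM and 24 at 1 µM. The one on chromosome 17 (chr17:7230129-7277037) inside Rps6ka2, a ribosomal S6 kinase gene, held 4, 19 and 18. The one on chromosome 15 (chr15:3269526-3303769), across Ccdc152 and the selenoprotein gene Selenop, held 7, 4 and 22. The union of the runs at Alad held 12, 14 and 15. The other places were picked for reaching the count at Alad in some list, and none did at 0.1 µM. This choice favours counts that vary between lists, and nothing is read from that. With 1 list per dose, these differences were not tested.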
